A study of Mus musculus with 12 samples.

Results

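Transcripts of the extracellular adenosine pathway were measured in bulk RNA from 12 subcutaneous TRAMP-C2 tumors. The members were 8 genes, found by matching the Ensembl identifiers of the count files to mouse gene symbols: Entpd1, Nt5e and Cd38, whose enzymes lead to adenosine, the receptors Adora1, Adora2a, Adora2b and Adora3, and Ada, whose enzyme removes it. All 8 were found among the 49315 genes of the files. They were listed by name, with earlier results of these data known. TRAMP-C2 cells derive from a prostate tumor of a transgenic mouse. They were grown under the skin of male C57BL/6J mice that were 6 to 8 weeks old. Tumors of about 200 mm3 were injected with Hank's balanced salt solution (HBSS, the vehicle, 3 doses of 50 µl), with cyto-IL-15 (2 doses of 10 µg), with ADU-S100 (3 doses of 50 µg), or with ADU-S100 and cyto-IL-15 at those doses (combination), and were removed on day 6. Cyto-IL-15 is an interleukin-15 that anchors to cell membranes, and ADU-S100 activates STING, which turns DNA in the cytosol into an interferon signal. Each group held 3 tumors, so the p-values below measure the spread between tumors of this one cell line in one host strain.

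Adenosine outside the cell is made mainly from ATP that stressed or dying cells release. CD39, encoded by Entpd1, removes phosphates from ATP and ADP to give AMP, and CD73, encoded by Nt5e, turns AMP into adenosine. CD38 consumes NAD and feeds a side route into the same step. Of the 4 receptors, those of Adora2a and Adora2b raise cyclic AMP inside the cell and those of Adora1 and Adora3 (A1 and A3) lower it, and signals through the Adora2a receptor restrain T cells and natural killer (NK) cells in tumors. Adenosine is ended by uptake into cells or by adenosine deaminase, the product of Ada, which converts it to inosine.

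The libraries held 48772204 to 103700199 counted reads, with overlapping ranges in the 4 groups. Tumors 13 (cyto-IL-15) and 28LL (combination) stood apart from the rest: over all pairs of tumors, the correlation of log2 levels across genes was 0.793 to 0.915 in the 21 pairs that include tumor 13 or 28LL and 0.936 to 0.989 in the other 45 pairs. Several results of the cyto-IL-15 and combination groups are therefore also given without 1 or both of these 2 tumors. Values given alone include every tumor of their groups. The labelled prostate origin was checked with 8 epithelial and prostate markers, whose summed level was 51.0 to 184 CPM with HBSS, 45.7 to 120 CPM with cyto-IL-15, 33.9 to 43.2 CPM with ADU-S100 and 36.6 to 50.6 CPM with the combination. One defining marker, Pbsn (probasin), was at or near 0 in all 12 tumors, with at most 0.0163 CPM. Levels of single genes are given as CPM, each count divided by the total of its library after TMM scaling and set to a common total, listed in the order of tumors 19, 22R and 22LL (HBSS), 9R, 13 and 20LL (cyto-IL-15), 17LL, 18R and 22LR (ADU-S100) and 20L, 22 and 28LL (combination). Levels of different genes are compared only as RPKM, which is CPM per kilobase of exon. In bulk RNA, fewer cells of a type and less RNA per cell cannot be told apart.

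Of the members, Entpd1, the CD39 gene, had the highest level per length in the vehicle-treated tumors. Mean RPKM in the HBSS group was 13.8 ± 0.654 (SD, n = 3) for Entpd1, 7.10 ± 1.74 for Cd38, 4.40 ± 0.745 for Ada, 2.62 ± 0.401 for Nt5e, 2.49 ± 0.178 for Adora2b, 2.07 ± 0.558 for Adora2a, 0.162 ± 0.0287 for Adora3 and 0.0296 ± 0.00165 for Adora1. The ranges of Nt5e and Adora2b overlapped, as did those of Adora2b and Adora2a, and all other neighbors in this order were separate. CD39 transcript was first and the receptors A3 and A1 were last in all 4 groups. In each of the 3 treated groups Ada ranked above Cd38, with overlapping ranges, the mean RPKM being 4.99 and 3.82 with cyto-IL-15, 4.87 and 4.63 with ADU-S100 and 6.69 and 6.32 with the combination.

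**Figure D1:**
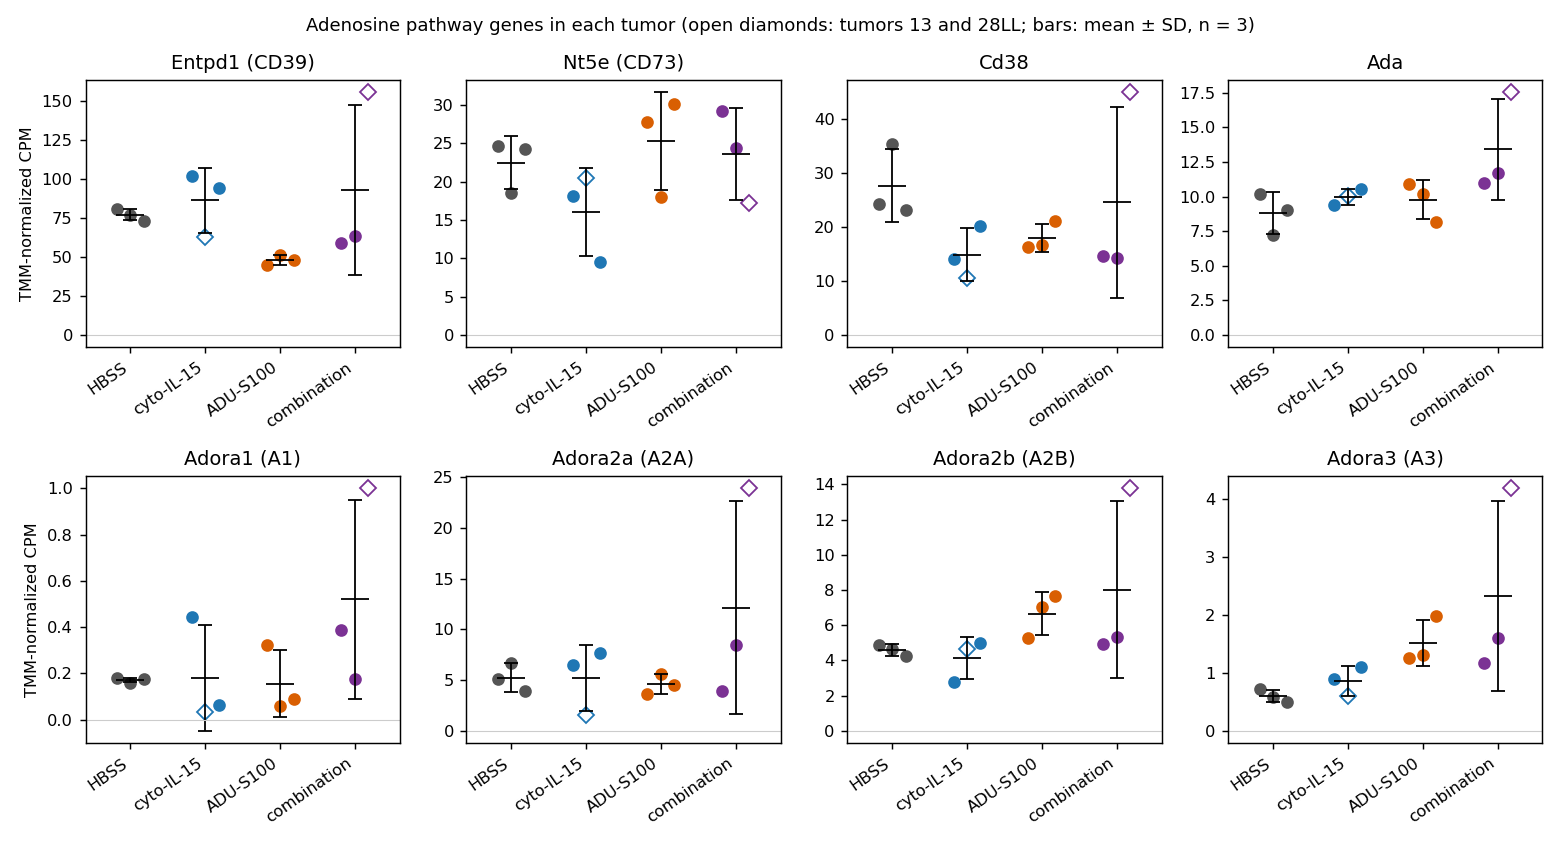
Level of each of the 8 genes in every tumor, in TMM-normalized CPM on linear axes, with points for tumors grouped by treatment, open diamonds for tumors 13 and 28LL, and bars for the mean ± SD of 3 tumors. Entpd1 is lower and Adora3 higher in each ADU-S100 tumor than in any HBSS tumor, and the spread of the combination group comes with tumor 28LL, which is the highest of all 12 tumors for every gene but Nt5e.

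The first question was which of these genes differed after STING agonist treatment alone. A gene was called when its adjusted p in edgeR was under 0.05 and its log2 fold change was beyond 1 in either direction. In ADU-S100 against HBSS, Adora3 was called as higher and no member was called as lower, so 1 of 8 members was called, where 3.53% of all 18911 tested genes were. By adjusted p alone, 2 of 8 members passed (Adora3 and Entpd1), where 6.19% of all genes did, and 4 of 8 had an unadjusted p under 0.05, where 23.9% of all genes had. The 2 groups did not overlap for 4 of 8 members, Adora2b and Adora3 being higher and Entpd1 and Cd38 lower, where 31.5% of all genes did not overlap. The median log2 fold change of the 8 members was -0.013, and that of all tested genes was 0.029.

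Among the enzymes that lead to adenosine, Entpd1 (ENSMUSG00000048120, chr19:40612366-40741602, plus strand, build GRCm38) showed the tightest difference. Its levels were 80.8, 77.3 and 73.5 CPM with HBSS and 44.8, 51.4 and 48.3 CPM with ADU-S100. Every ADU-S100 tumor was below every HBSS tumor, with a gap larger than the range of either group. The log2 fold change was -0.68 ± 0.10 (SE), a fitted ratio of 0.626 to HBSS, with an adjusted p of 0.00875 in edgeR, which passed the p threshold but not the fold threshold. Leaving out each of the 6 tumors in turn gave -0.72 to -0.64, with adjusted p at most 0.0481. In a fit of all 12 tumors with 1 shared spread, the log2 fold change was -0.68 and the adjusted p 0.584. Of 8 markers of resident-type macrophages, 6 were lower in every ADU-S100 tumor than in every HBSS tumor and none was higher, and their summed level was 1551 to 1705 CPM with HBSS and 586 to 645 CPM with ADU-S100. With the combination, 5 of these 8 markers were lower in every tumor than in every HBSS tumor, with a sum of 562 to 876 CPM. The 876 CPM was that of tumor 28LL, whose Entpd1 level (156 CPM) was the highest of all 12 tumors. Of 6 B and plasma cell markers, 4 were also lower in every ADU-S100 tumor than in every HBSS tumor. The part of either cell type in the Entpd1 difference was not tested.

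With cyto-IL-15, Entpd1 was at 102, 62.8 and 94.3 CPM, and with the combination at 59.4, 63.7 and 156 CPM. Tumor 13 was the lowest of its group and tumor 28LL was the highest of all 12, so that both groups spanned the HBSS range. The log2 fold change against HBSS was 0.16 ± 0.21 for cyto-IL-15 (adjusted p = 0.908) and 0.29 ± 0.39 for the combination (adjusted p = 0.697). Without tumor 28LL the latter turned to -0.32 (adjusted p = 0.132). ADU-S100 against cyto-IL-15 gave -0.87 ± 0.21, with an adjusted p of 0.441, and Entpd1 was called as lower when tumor 13 was left out (-1.03, adjusted p = 0.0146). For combination against ADU-S100, the 2 groups were separate, Entpd1 being higher with the combination, with a log2 fold change of 0.96 ± 0.39 (adjusted p = 0.884), which became 0.35 (adjusted p = 0.620) without tumor 28LL.

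Nt5e (ENSMUSG00000032420, chr9:88327197-88372092, plus strand), the CD73 gene, did not separate the groups. It was at 24.7, 18.5 and 24.3 CPM with HBSS, 18.1, 20.5 and 9.56 CPM with cyto-IL-15, 27.8, 18.0 and 30.1 CPM with ADU-S100, and 29.2, 24.4 and 17.3 CPM with the combination. All 3 treated groups overlapped the HBSS group, and the lowest level was that of cyto-IL-15 tumor 20LL. The log2 fold changes against HBSS were -0.49 ± 0.31 for cyto-IL-15, 0.17 ± 0.21 for ADU-S100 and 0.079 ± 0.23 for the combination, with adjusted p of 0.898, 0.647 and 0.860.

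Cd38 (ENSMUSG00000029084, chr5:43868553-43912375, plus strand) encodes an enzyme that also marks several activated lymphocytes and myeloid cells. It was at 24.3, 35.4 and 23.1 CPM with HBSS, at 13.99, 10.5 and 20.1 CPM with cyto-IL-15, and at 16.4, 16.7 and 21.0 CPM with ADU-S100. Each tumor given 1 agent was below all HBSS tumors. With the combination it was at 14.6, 14.2 and 45.0 CPM, the first 2 being below and tumor 28LL above all HBSS tumors. The log2 fold change against HBSS was -0.89 ± 0.30 for cyto-IL-15 (adjusted p = 0.898), -0.61 ± 0.19 for ADU-S100 (adjusted p = 0.0883) and -0.15 ± 0.50 for the combination (adjusted p = 0.881). Without tumor 28LL, the last value was -0.94. None of the 3 comparisons passed the test.

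**Figure D2:**
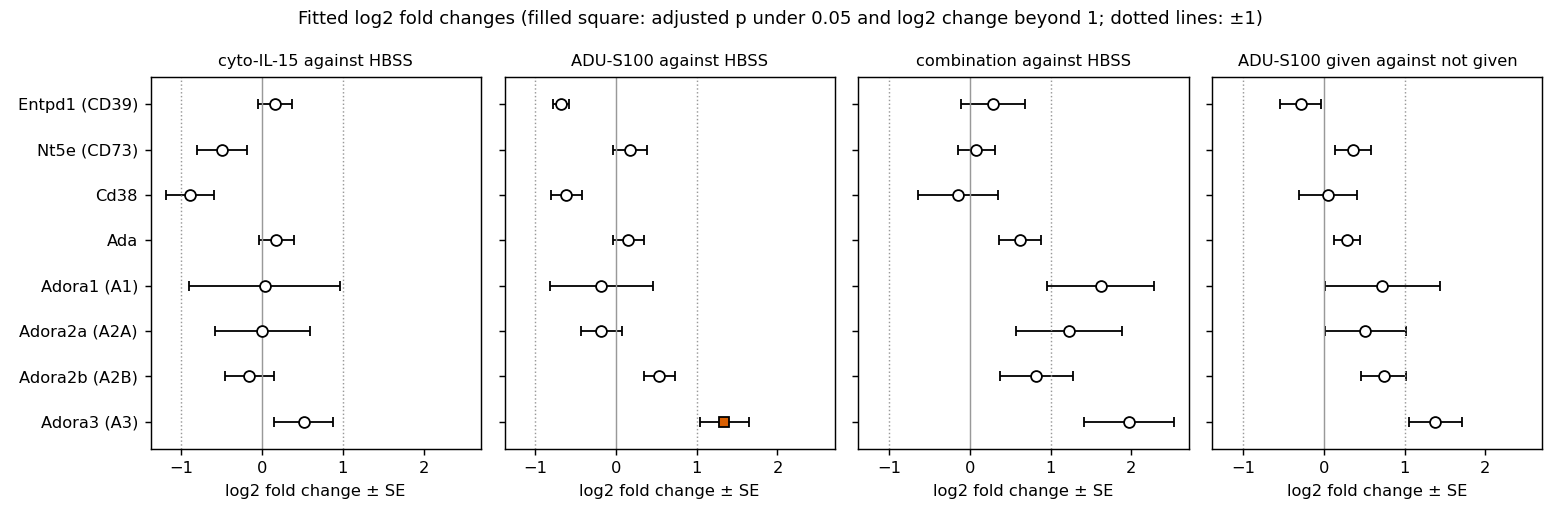
Fitted log2 fold change (horizontal axis) ± SE of each gene in 4 comparisons, the first 3 of which share the same 3 HBSS tumors. The filled square marks the only called value, Adora3 in ADU-S100 against HBSS at 1.34, and the dotted lines mark a log2 fold change of 1 in each direction.

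Of the receptors, Adora3 (ENSMUSG00000000562, chr3:105870858-105908926, plus strand), which encodes the A3 receptor known from mast cells, was the only member called as higher with ADU-S100. It was at 0.715, 0.589 and 0.503 CPM with HBSS and at 1.26, 1.31 and 1.98 CPM with ADU-S100, from 44 to 46 and from 90 to 180 counted reads. All ADU-S100 tumors were above all HBSS tumors. The log2 fold change was 1.34 ± 0.30, a fitted ratio of 2.53, with an adjusted p of 0.0376 in edgeR. The direction held when each of the 6 tumors was left out in turn (1.08 to 1.48), but the call held only without tumor 17LL, the adjusted p being 0.0725 to 0.127 without any one of the other 5 tumors. It was 0.450 in the fit of all 12 tumors with 1 shared spread.

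Adora3 was at 0.886, 0.597 and 1.10 CPM with cyto-IL-15 and at 1.17, 1.61 and 4.19 CPM with the combination. The cyto-IL-15 tumors overlapped the HBSS tumors, and the combination tumors did not. In combination against HBSS the log2 fold change was 1.96 ± 0.56 with an adjusted p of 0.197 in edgeR, whereas DESeq2 (1.96, adjusted p = 0.0116) and limma voom with a quality weight per tumor (1.39, adjusted p = 0.0301) called it. Without tumor 28LL the log2 fold change was 1.21 (adjusted p = 0.0975). When the 6 tumors given ADU-S100, alone or with cyto-IL-15, were compared with the 6 tumors not given it, all 6 of the former were above all 6 of the latter, with a log2 fold change of 1.38 ± 0.33 and an adjusted p of 0.0555. DESeq2 and voom called this difference, and so did edgeR without combination tumor 20L (1.501, adjusted p = 0.0298). Without tumors 13 and 28LL it was 0.995 with an adjusted p of 0.0370, just under the fold threshold.

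All 6 NK cell markers were also higher in each ADU-S100 tumor than in any HBSS tumor, their summed level being 9.21 to 13.2 CPM with HBSS, 14.8 to 60.6 CPM with cyto-IL-15, 37.4 to 46.7 CPM with ADU-S100 and 45.4 to 383 CPM with the combination. With cyto-IL-15, 5 of the 6 NK cell markers were higher in each tumor than in any HBSS tumor. Adora3 was above all HBSS tumors in 9R (0.886 CPM) and 20LL (1.10 CPM) but not in tumor 13 (0.597 CPM). The summed NK cell markers of these tumors were, in the same order, 53.4, 60.6 and 14.8 CPM. Other markers were also lowest in tumor 13, T cell markers at 116, 141 and 20.8 CPM and skeletal muscle fiber markers at 867, 323 and 5.16 CPM. Tumors 9R and 20LL were above all ADU-S100 tumors in summed NK cell markers but below all of them in Adora3 (1.26 to 1.98 CPM). Of 10 markers of inflammatory monocytes and neutrophils, 7 were higher and 1 was lower in each ADU-S100 tumor. The part of these cells in the Adora3 difference was not tested. Adora3 overlaps Tmigd3 on the same strand, and 2 to 15 reads per tumor were assigned to Tmigd3. Reads in stretches that both genes share cannot be told apart, so these counts set no limit on the part of Tmigd3 in the Adora3 counts.

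The promoter of Adora3, the member that was called, is shown with that of Ada, the one member in which an interferon-type motif was found. Each sequence is the 250 bases before the RefSeq start on the strand of the gene (GRCm38.p6), for Adora3 chr3:105904171-105904420 on the plus strand, inside the gene as the files bound it, and for Ada chr2:163750240-163750489 on the minus strand. Capitals mark a match to TTCNNNGAA, the motif of STAT factors (GAS).
Adora3: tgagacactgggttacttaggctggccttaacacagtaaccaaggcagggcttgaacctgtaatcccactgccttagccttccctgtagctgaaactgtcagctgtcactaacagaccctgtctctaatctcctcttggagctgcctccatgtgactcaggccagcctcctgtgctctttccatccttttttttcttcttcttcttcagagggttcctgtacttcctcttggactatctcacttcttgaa
Ada: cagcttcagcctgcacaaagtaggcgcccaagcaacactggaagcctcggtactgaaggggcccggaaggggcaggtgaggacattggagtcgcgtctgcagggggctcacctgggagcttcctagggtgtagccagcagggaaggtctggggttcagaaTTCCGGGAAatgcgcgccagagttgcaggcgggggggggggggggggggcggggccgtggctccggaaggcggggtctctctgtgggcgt

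Promoters of 7 of the 8 members were found in the table, each searched on both strands from 250 bases before to 50 bases after the start. Besides GAS, which 8.30% of all 32851 promoters hold, the letters searched were GAAANNGAA (the core of the interferon-stimulated response element, in 8.56% of promoters), ACGTG (the hypoxia response element, in 19.6%) and TGACGTCA (the cyclic AMP response element, in 1.79%). The matches among the members were the GAS letters of Ada at -90 and ACGTG on the minus strand of an Adora1 promoter at -129. None of the 4 motifs was matched in the Adora3, Entpd1, Nt5e, Adora2b or Cd38 windows. A match is a description of letters and not a bound site, and windows without one say nothing about these factors.

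Adora2b (ENSMUSG00000018500, chr11:62248984-62266453, plus strand) encodes A2B, the receptor that answers to high adenosine. It was at 4.89, 4.63 and 4.24 CPM with HBSS, at 2.76, 4.68 and 4.99 CPM with cyto-IL-15, at 5.29, 7.01 and 7.64 CPM with ADU-S100 and at 4.95, 5.32 and 13.8 CPM with the combination. Each tumor given ADU-S100 was above each HBSS tumor, but combination tumor 20L only just (4.95 against 4.89 CPM). Adora2b gave a log2 fold change of 0.54 ± 0.20 in ADU-S100 against HBSS (adjusted p = 0.140), 0.82 ± 0.45 in combination against HBSS (adjusted p = 0.363) and 0.74 ± 0.28 between all tumors given and not given ADU-S100 (adjusted p = 0.157). In the combination it was 0.16 without tumor 28LL.

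Adora2a (ENSMUSG00000020178, chr10:75316943-75334788, plus strand) encodes the receptor best known for holding back T cells. It was at 5.07, 6.74 and 3.92 CPM with HBSS, at 6.51, 1.56 and 7.66 CPM with cyto-IL-15, at 3.66, 5.61 and 4.57 CPM with ADU-S100, and at 3.97, 8.43 and 24.0 CPM with the combination. The 3 treated groups each overlapped the HBSS group, and the extremes were tumors 13 and 28LL. Against HBSS, the log2 fold change was -0.18 ± 0.25 for ADU-S100 (adjusted p = 0.706) and 1.23 ± 0.65 for the combination (adjusted p = 0.354), the latter becoming 0.25 without tumor 28LL.

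Adora1 (ENSMUSG00000042429, chr1:134199223-134235431, minus strand), the A1 receptor gene, lay near the detection limit, with 2 to 73 reads per tumor and 0.0332 to 1.00 CPM. The highest levels were those of tumor 28LL (1.00 CPM), cyto-IL-15 tumor 9R (0.443 CPM) and combination tumor 20L (0.388 CPM), against 0.161 to 0.179 CPM with HBSS. In combination against HBSS the log2 fold change was 1.62 ± 0.67 (adjusted p = 0.272). The span of Adora1 overlaps that of Mybph, a muscle gene on the opposite strand. To Mybph 0 to 1126 reads per tumor were assigned, with the highest count also in tumor 28LL. The labels name no step that marks strand, so reads in any exons that the 2 genes share cannot be told apart, and Adora1 is uncertain. Markers of skeletal muscle fibers summed to 7.40 to 8.69 CPM with HBSS, 5.16 to 867 CPM with cyto-IL-15 (highest in tumor 9R), 184 to 2058 CPM with ADU-S100 and 60.1 to 4728 CPM with the combination.

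**Figure D3:**
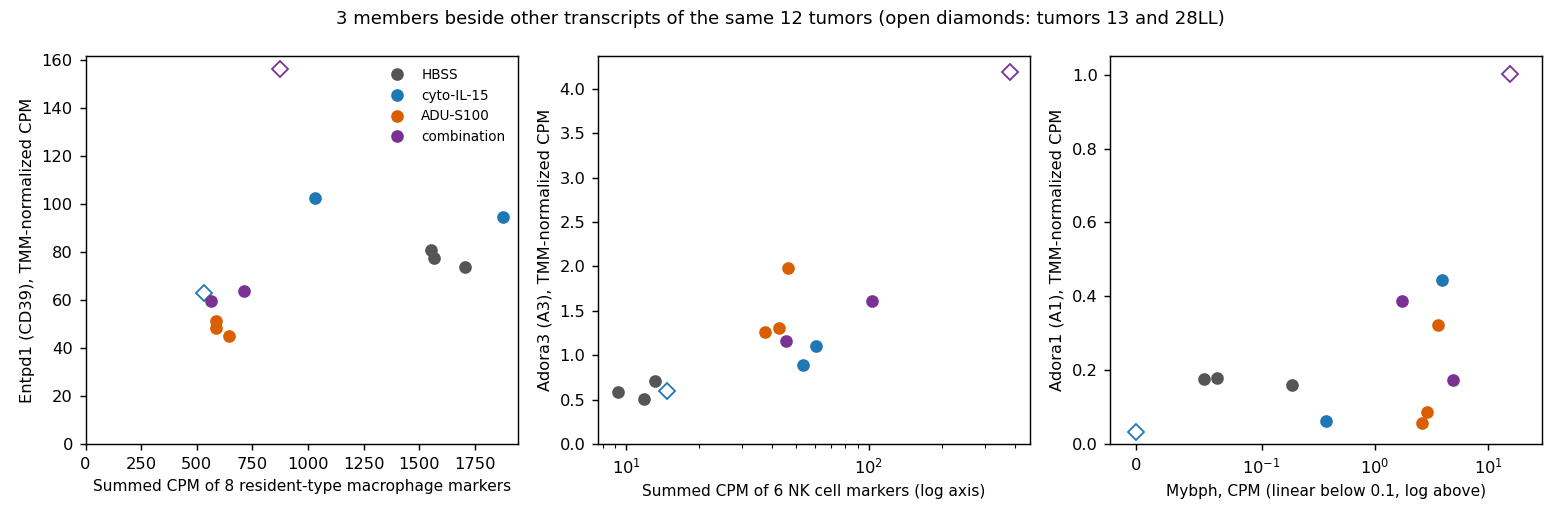
Level of Entpd1, Adora3 and Adora1 (vertical axes, CPM from 0) in each of 12 tumors, set against the summed CPM of resident-type macrophage markers (linear axis), the summed CPM of NK cell markers (log axis) and Mybph (linear below 0.1 CPM and log above). The 3 ADU-S100 tumors lie apart from the HBSS tumors in the first 2 panels, and tumor 28LL, an open diamond, is the highest point of each panel.

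Ada (ENSMUSG00000017697, chr2:163726584-163750239, minus strand), the gene of the enzyme that removes adenosine, was at 10.2, 7.20 and 9.04 CPM with HBSS, 9.39, 10.0 and 10.5 CPM with cyto-IL-15, 10.9, 10.2 and 8.18 CPM with ADU-S100 and 11.0, 11.7 and 17.6 CPM with the combination. All combination tumors were above all HBSS tumors, and the other treated groups overlapped the HBSS group. Ada gave a log2 fold change of 0.62 ± 0.26 in combination against HBSS (adjusted p = 0.281) and 0.37 without tumor 28LL. It was 0.15 ± 0.19 with ADU-S100 and 0.18 ± 0.21 with cyto-IL-15.

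The other comparisons of the design called no member in edgeR. In cyto-IL-15 against HBSS, 1 of 8 members had an unadjusted p under 0.05 in the edgeR fit (Cd38), where 3.8% of all genes had. None was called by the 3 tools, where 0% of all genes were called by edgeR, 0.284% by DESeq2 and 0.0108% by voom, and 1 of 8 members did not overlap, against 10.6% of all genes. In combination against HBSS, 2 of 8 had an unadjusted p under 0.05 (Adora3 and Adora1), where 18.2% of all genes had. DESeq2 and voom each called 1 of 8, where they called 3.03% and 4.97% of all genes, and edgeR called 0%. The 2 groups did not overlap for 3 of 8 members (Adora2b, Adora3 and Ada, all higher with the combination), against 30.1% of all genes. In the comparison of all tumors given ADU-S100 with those not given it, 2 of 8 had an unadjusted p under 0.05 (Adora3 and Adora2b), where 21.4% of all genes had. None of the 8 was called by edgeR, where 1.24% of all genes were, and 1 of 8 (Adora3) was called by DESeq2 and by voom, where 2.62% and 4.13% were. Only Adora3 did not overlap, against 3.61% of all genes. These 3 comparisons use the same HBSS tumors. In ADU-S100 against cyto-IL-15, 7 members were tested, Adora1 being too low, and 1 of 7 had an unadjusted p under 0.05 (Entpd1), where 7.85% of all genes had. None was called by the 3 tools, where 0.0855% of all genes were called by edgeR, 0.682% by DESeq2 and 0.978% by voom.

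Whether the agents acted together was asked by an interaction term, the log2 fold change of the combination against ADU-S100 minus that of cyto-IL-15 against HBSS. No member was called by edgeR, DESeq2 or voom, where each of these tools called 0 of all genes. In the edgeR fit, 1 of 8 members had an unadjusted p under 0.05, where 2.29% of all genes had. This was Cd38 (1.34 ± 0.60, adjusted p = 1.00), for which the term was 0.37 without tumors 13 and 28LL. For Entpd1 it was 0.79 ± 0.46, and 0.0069 without them. No member was called in combination against ADU-S100 or cyto-IL-15 or between tumors given and not given cyto-IL-15, by any of the 3 tools. Of all genes, edgeR and voom called 0 in each, and DESeq2 called 7 of 37280, 111 of 38783 and 81 of 40986. The members with an unadjusted p under 0.05 numbered 1 of 8 (Entpd1), 0 of 8 and 1 of 8 (Entpd1) in these 3 comparisons, where 4.29%, 4.97% and 7.7% of all genes had such a p.

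The wider pathway was read from 5 further lists, in which 1 gene, P2ry12, was called in 1 of the 9 comparisons. Among 9 other ectonucleotidases, 7 were tested in ADU-S100 against HBSS and none was called in either direction, while 4 of the 7 had an unadjusted p under 0.05, a share to be read, here and for the lists below, against 23.9% of all genes. Bst1, which encodes CD157, a relative of CD38, was at 6.60, 5.09 and 7.08 CPM with HBSS and at 12.7, 12.4 and 32.0 CPM with ADU-S100. The groups were separate, with a log2 fold change of 1.61 ± 0.39 and an adjusted p of 0.0606, and DESeq2 called it (adjusted p = 2.99e-05). Art2b, an ADP-ribosyltransferase of T cells that also draws on NAD, gave -1.77 ± 0.52 (adjusted p = 0.0792), and Alpl, the tissue-nonspecific alkaline phosphatase, 0.89 ± 0.30 (adjusted p = 0.113). Both rested on few reads, Art2b on 67, 27 and 48 with HBSS and 11, 30 and 11 with ADU-S100. Alpl had 22, 32 and 37 reads with HBSS and 43, 77 and 78 with ADU-S100.

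Acpp, which encodes prostatic acid phosphatase, an enzyme that can also turn AMP into adenosine, was present per length well above CD73. It was at 71.7, 95.4 and 58.3 RPKM with HBSS, 42.5, 1.32 and 33.9 RPKM with cyto-IL-15, 56.6, 56.7 and 44.5 RPKM with ADU-S100 and 68.8, 82.3 and 3.75 RPKM with the combination. Tumors 13 and 28LL were far below the other 10, and in each of those 10 Acpp exceeded all 8 members, the highest of which was Entpd1 at 8.03 to 18.3 RPKM. Nt5e lay between 1.11 and 3.50 RPKM in all 12 tumors. The log2 fold change of Acpp in ADU-S100 against HBSS was -0.51 ± 0.19, with an adjusted p of 0.141. Enpp1, whose enzyme splits ATP to AMP and also acts on NAD products and on cyclic dinucleotides, showed the same low pair, at 2.09 RPKM in tumor 13 and 2.33 RPKM in tumor 28LL against 9.00 to 18.5 RPKM in the other 10. Enpp1 was chosen after its values were seen.

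**Figure D4:**
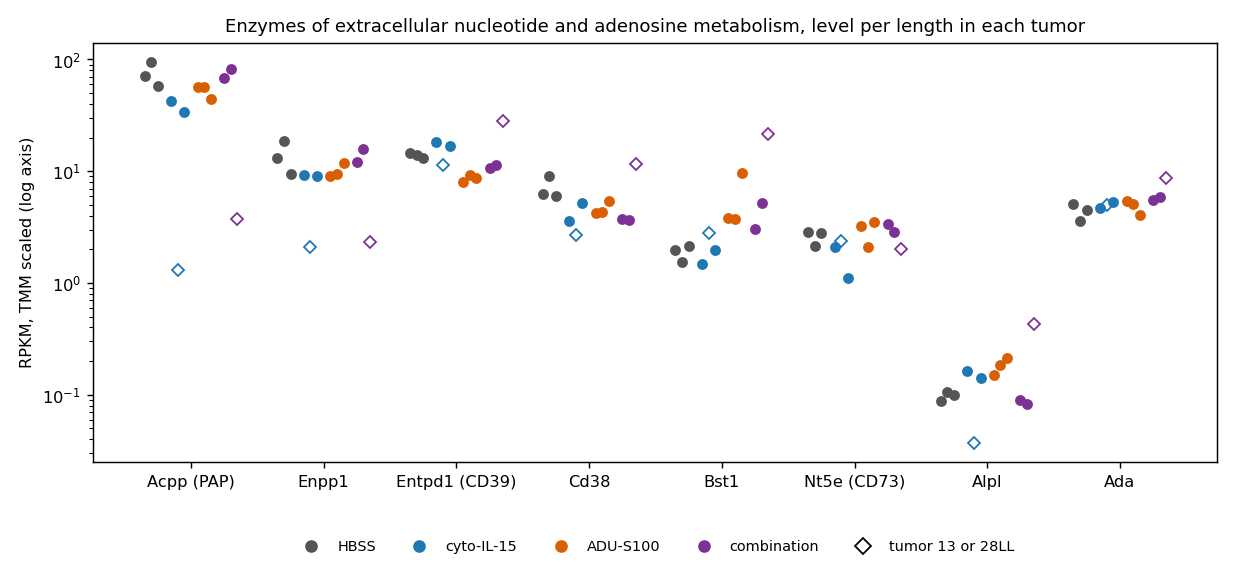
Level per length (RPKM with TMM scaling, log axis) of 8 enzyme genes in every tumor, colored by treatment, with open diamonds for tumors 13 and 28LL. Acpp is the highest of the 8 in the 10 other tumors, at 33.9 to 95.4 RPKM, and is at 1.32 and 3.75 RPKM in the diamonds, where Enpp1 is low as well.

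Of 16 P2 receptors and pannexin, which sense or release the nucleotides upstream of adenosine, 15 were tested in ADU-S100 against HBSS, and 1 was called as lower, none as higher. P2ry12, an ADP receptor of platelets and some tissue macrophages, fell from 29.5, 24.1 and 29.9 CPM to 15.9, 12.4 and 11.3 CPM. The groups were separate, with a log2 fold change of -1.07 ± 0.17 and an adjusted p of 0.00996. The call was lost without tumor 22LR, where the change was just inside the fold threshold (-0.996, adjusted p = 0.0228), and in the fit of all 12 tumors (-1.08, adjusted p = 0.496). P2ry13, another ADP receptor, and P2rx7, an ATP-gated channel that can start inflammasome activation, passed by adjusted p but not by fold, with -0.95 ± 0.15 (adjusted p = 0.0114) and -0.95 ± 0.13 (adjusted p = 0.00678). P2ry14, a UDP-glucose receptor, gave 0.90 ± 0.26 (adjusted p = 0.0737). The median of the 15 was 0.15, beside 0.029 over all genes. These lower values stand beside the lower macrophage markers given above, whose part was not tested.

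Of 7 nucleoside transporters, 5 were tested and none was called in either direction, with 1 of the 5 at an unadjusted p under 0.05. Slc28a2, a concentrative transporter that takes up purine nucleosides, was at 8.52, 5.72 and 8.99 CPM with HBSS and 12.3, 13.4 and 23.9 CPM with ADU-S100. The groups were separate, and the log2 fold change was 1.10 ± 0.29 (adjusted p = 0.0631), which DESeq2 called (adjusted p = 0.00153) and voom did not. Of 10 intracellular enzymes of adenosine and AMP, 8 were tested and none was called, with 3 of the 8 at an unadjusted p under 0.05. Ampd1, the AMP deaminase of muscle, gave 3.00 ± 0.81 (adjusted p = 0.0748), and DESeq2 called it (adjusted p = 0.000157), in tumors whose muscle markers were higher as given above. Its reads were 9, 10 and 18 with HBSS and 197, 86 and 26 with ADU-S100. Xdh, the xanthine oxidoreductase that ends purine breakdown, gave 0.73 ± 0.26 (adjusted p = 0.137), Ahcy, which frees adenosine from S-adenosylhomocysteine, -0.29 ± 0.10 (adjusted p = 0.129), and Adk, adenosine kinase, -0.28 ± 0.14 (adjusted p = 0.251).

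Of 9 genes of cyclic AMP signaling, through which the receptors act, all 9 were tested, none was called, and 3 of the 9 had an unadjusted p under 0.05, where 23.9% of all genes had. Creb1, the transcription factor that cyclic AMP activates, was at 75.6, 85.9 and 80.0 CPM with HBSS and 53.7, 56.6 and 60.0 CPM with ADU-S100. It passed by adjusted p (0.0280) but not by fold, at -0.50 ± 0.10. Pde4b, a phosphodiesterase that breaks down cyclic AMP, gave -0.70 ± 0.19 (adjusted p = 0.0676), the adenylyl cyclase gene Adcy7 -0.32 ± 0.12 (adjusted p = 0.147) and Nr4a3, an early response gene, -0.44 ± 0.22 (adjusted p = 0.260). The median of the 9 was -0.32, against 0.029 over all genes.

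For the 7 members with a mean of at least 1 CPM, the 3 genes with the most similar levels were found among 14142 genes by Pearson's r of log2(CPM + 0.5) over the 12 tumors. These tumors differ in treatment and in library depth, so r is a description and carries no p. Adora3 was most like Ccl4, a chemokine (r = 0.985, Spearman's rho = 0.965), Ifi214, an interferon-inducible gene (r = 0.978), and Tnfsf14, which encodes the cytokine LIGHT (r = 0.975). Without tumors 13 and 28LL these values were 0.959, 0.958 and 0.945, at ranks 1, 2 and 6. Entpd1 was most like Kmo, an enzyme of tryptophan breakdown (r = 0.943), Slc9a7 (r = 0.935) and Grk3 (r = 0.930), and over 10 tumors r was 0.920, 0.914 and 0.894, at which they ranked 28, 33 and 56 in likeness. Adora2a was most like Prkch (r = 0.983), Ppp1r16b (r = 0.981) and Sdr42e1 (r = 0.967), which became 0.906, 0.896 and 0.806, at ranks 1, 2 and 25.

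For Adora2b the genes were Daxx (r = 0.976), Tdrd7 (r = 0.960) and Slpi, a protease inhibitor (r = 0.958). Cd38 was most like Agtr1a (r = 0.953), Col28a1 (r = 0.945) and Rhoq (r = 0.929), and Ada was most like Mrpl41 (r = 0.966), and Med11 was also among its nearest genes (r = 0.951). Nt5e had the weakest neighbors, Gm5345 (r = 0.854), Itga5 (r = 0.764) and Slc7a2 (r = 0.741). Leaving out tumors 13 and 28LL kept r of the genes named here between 0.774 and 0.944, but most were then no longer the nearest genes. Their ranks became 4, 11 and 14 for Adora2b, 38, 14 and 21 for Cd38, 18 and 38 for Ada, and 2, 15 and 11 for Nt5e. No gene was most like more than 1 member.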

How the data were processed

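RNA of 12 tumors, 3 per treatment, was sequenced after NEBNext Ultra II library preparation. The tools that the authors' processing notes name, without order, include the aligner STAR 2.5.2b, featureCounts (Subread 1.5.2), DESeq2, Trimmomatic 0.36 and bcl2fastq 2.20, and the genome is given as mm10 or GRCm38. Annotation release, strand setting and treatment of multimapping reads are not given in the sources used here. The deposited values are raw counts of reads per Ensembl gene, with gene lengths, from which RPKM was computed. Of 49315 genes, 48970 were given a symbol and 44734 lay at GENCODE M21 coordinates. Adora2a did not, and Pnp was not matched.

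For each pair of groups, a separate fit of the 6 tumors was made with edgeR 4.0.16 under R 4.3.3 (TMM scaling, filterByExpr with minimum count 10 and total 15, robust quasi-likelihood F test, Benjamini-Hochberg adjustment over all tested genes). A call required a log2 fold change beyond 1 in either direction together with an adjusted p below 0.05. Tumors given and not given an agent were compared in 1 additive fit of all 12, and the interaction was fitted on all 12. The scripts were tested on simulated data. Alternatives were DESeq2 1.42.0, limma 3.58.1 voom with quality weights, RLE size factors, no filter, no fold threshold, each tumor left out, all 12 tumors in 1 fit, the 10 tumors other than 13 and 28LL, and, chosen after seeing the data, the number in the titles of 6 tumors as a block. Shares of genes called by DESeq2 are of all genes with a count. The counting precision at these depths is limited for Adora1 and Adora3, and in the wider lists for Art2b, Alpl and Ampd1 among others. Promoters are from RefSeq (GRCm38.p6).

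Named were all 8 members, from each pathway list every called gene and otherwise up to 4 with the smallest p in ADU-S100 against HBSS, and the 3 genes most like each member. Items withheld from this account are not reported here. The members and all lists, including those of cell type markers, were chosen with earlier results of these data known.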

Additional observations from a re-analysis of the deposited data

How the results depend on the processing

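Of 749 alternative values of 53 single-gene results, 714 kept their direction. The number of members called in ADU-S100 against HBSS was 1 and became 2 with no fold threshold, 0 in the fit of all 12 tumors and 0 to 1 with a tumor left out. It rose from 0 to 1 in combination against HBSS with DESeq2 and with voom, in ADU-S100 against cyto-IL-15 in the fit of 10 tumors, and in tumors given against not given ADU-S100 with DESeq2 and with voom. Leaving out 1 tumor gave 0 to 1 in the last 2 comparisons. The cause was not tested. Of all genes, 667 were called in ADU-S100 against HBSS, against 1121 with DESeq2, 325 to 624 with a tumor left out, 556 in the fit of 10 tumors and 0 in the fit of 12. Combination against HBSS called 0, against 1156 with DESeq2, 923 with voom and 316 in the fit of 10. Cyto-IL-15 against HBSS called 0, against 109 with DESeq2, 2 with voom and 32 in the fit of 10. Tumors given against not given ADU-S100 called 240, against 1075 with DESeq2, 801 with voom and 528 in the fit of 10. With a tumor left out it called 67 (without HBSS tumor 22R) to 534 (without combination tumor 20L), a move of over 1.5 times for every tumor but combination tumors 22 and 28LL.

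Directions turned where the main value was small or rested on 1 tumor. With voom, Adora1 in cyto-IL-15 against HBSS became -0.26, Nt5e and Adora2a in ADU-S100 against HBSS -0.029 and 0.037, Entpd1 in combination against HBSS -0.25, and Adora1 and Cd38 in given against not given ADU-S100 -0.36 and -0.41. In the fit of 10 tumors, Entpd1 in combination against HBSS became -0.34, and in given against not given ADU-S100, Adora1, Adora2a and Cd38 became -0.013, -0.18 and -0.46. Adora2a in cyto-IL-15 against HBSS became -0.0053 with DESeq2 and -0.017 with no filter. With a tumor left out, cyto-IL-15 against HBSS ranged from -1.78 to 0.52 for Adora1, -0.37 to 0.44 for Adora2a and -0.31 to 0.060 for Adora2b. ADU-S100 against HBSS ranged from -1.23 to 0.24 for Adora1 and -0.35 to 0.025 for Adora2a. Combination against HBSS ranged from -0.11 to 0.26 for Nt5e, -0.32 to 0.52 for Entpd1 and -0.94 to 0.14 for Cd38. Given against not given ADU-S100 ranged from -0.0005 to 0.68 for Adora2a and -0.37 to 0.22 for Cd38. Adora1, with 2 to 73 reads, is limited by depth. The replicate numbers follow accession order and pair no tumors. The titles of 6 tumors share 2 numbers between groups (22 in 22R, 22LL, 22LR and 22, and 20 in 20LL and 20L), at most 1 number for any pair of groups, and no source used here says what the number marks. Over the 6 pairs of tumors from different groups with the same number, the correlation of deviations from the group means was -0.19 to 0.15, with 2 pairs over 0.1. Over the 48 pairs between groups with other numbers it was -0.39 to 0.39, with 16 pairs over 0.1. Chosen after seeing the data, these 6 tumors were also fitted with the number as replicate block. They hold 1 cyto-IL-15 tumor (20LL) and 1 ADU-S100 tumor (22LR), too few to measure spread within those groups. Only log2 fold changes of this fit are therefore given. Adora2a turned to -0.52 and Cd38 to -0.47 in given against not given ADU-S100, and Entpd1 turned to -0.031 in the interaction.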

Other observations

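Both tumors that stood apart carried their own pattern in the wider pathway, given here for genes chosen after their values were seen. In cyto-IL-15 tumor 13, Adk, the kinase that returns adenosine to AMP, was at 117 CPM, where the other 11 tumors ranged from 21.7 to 55.9 CPM. Ahcy was at 243 CPM there, against 95.1 to 168 CPM, and Nr4a1, an early response gene, at 49.8 CPM, against 12.1 to 25.3 CPM. P2ry12 and P2ry13 were at their lowest in that tumor, at 6.85 and 4.77 CPM. In combination tumor 28LL, Nr4a3 was at 27.8 CPM, where the other 11 ranged from 1.99 to 3.84 CPM. Bst1 was at 71.3 CPM (4.91 to 32.0 CPM elsewhere), Slc28a2 at 60.8 CPM (3.33 to 23.9 CPM) and P2ry14 at 28.5 CPM (2.13 to 7.85 CPM). Each of these is the value of 1 tumor, with no test.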
